A study of Mus musculus with 6 samples.

Results

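The E2F factors and their pocket proteins were followed here in splenic B cells that either carried or lacked the aryl hydrocarbon receptor (AhR). The members were chosen by name and numbered 10 of the 23420 genes in the count table. They were the transcription factors E2f1 to E2f8, the retinoblastoma gene Rb1, and Rbl1, which encodes p107. All 10 had enough reads to be tested. Polyadenylated RNA was measured in B cells purified from the spleens of 3 Ahr+/+ and 3 Ahr-/- mice, whose background strain is labelled C57Bl/6J. The Ahr-/- mice carried a germline null allele, so every cell of the animal, and not B cells alone, lacked the receptor. The paper's name for the Ahr-/- mice also holds that of another strain, the source of the targeted allele. The mice were adults and were matched for age and sex. Both genotypes received the same stimulus, which was 10 ug/ml of anti-IgM to engage the B cell receptor and 20 ng/ml of IL-4 for 8 h, with FICZ, a high-affinity AhR ligand, at 250 nM over the last 4 h. There was no unstimulated group and no group without FICZ. Each library was 1 mouse.

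E2F factors bind the promoters of genes needed for DNA replication, mostly as a heterodimer with a DP protein. E2F1, E2F2 and E2F3 are usually grouped as activators. E2F4 and E2F5 act mainly as repressors together with the pocket proteins p107 and p130, and E2F6 represses without binding any pocket protein. E2F7 and E2F8 are atypical repressors that bind DNA without DP. In a resting lymphocyte the pocket proteins hold E2F in check, and cyclin D and cyclin E kinases phosphorylate them as the cell leaves G1. The comparison of genotypes asks whether the transcripts of this switch differ when stimulated B cells lack AhR.

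Library totals lay between 22095096 and 53648787 counts, with the smallest and the largest both among the Ahr-/- libraries. No library was a copy of another, since chi-square values for pairs of replicates were 3.80 to 8.80 times their degrees of freedom. Ahr itself, on chromosome 12 of GRCm38 from 35497974 to 35535038, had a mean of 13175 ± 682 normalized counts in Ahr+/+ and of 9174 ± 472 in Ahr-/- libraries (SD, n = 3 mice each) and was lower in all 3 of the latter (log2 fold change -0.52, edgeR adjusted p = 7.1e-06). The table holds 1 count for the gene, so reads from exons left in the targeted allele are included. All 8 B cell markers were detected, with a summed level of 2051 to 2160 CPM (counts scaled to the library's size) in Ahr+/+ and 2357 to 2456 in Ahr-/- libraries. By the test used below, 4 of these 8 were higher (Pax5, Cd79b, Cd79a and Ms4a1) and 2 lower (Ebf1 and Blnk) in Ahr-/- libraries. T cell markers summed to between 7.01 and 10.4 CPM in any library, and 1 of the 8, Cd3e, was lower (log2 fold change -1.26). The 8 markers of plasmacytoid dendritic cells summed to 93.2 to 108 CPM in Ahr+/+ and 123 to 151 CPM in Ahr-/- libraries, and 7 of the 8 were higher in Ahr-/- libraries. Conventional dendritic cell markers summed to 21.1 to 24.3 and 22.7 to 27.5 CPM, with 4 of 7 higher (Cd209a, Clec9a, Clec10a and Itgax) and 1 lower (Zbtb46). NK cell markers summed to 6.39 to 9.14 and 7.92 to 13.0 CPM, with 2 of 5 higher (Ncr1 and Klrb1c). Macrophage or monocyte markers summed to 31.0 to 38.5 and 15.8 to 28.4 CPM, with 1 of 6 lower (Emr1, log2 fold change -3.60). Without Emr1 the other 5, of which 4 had a log2 fold change above 0 and 0 passed, summed to 14.0 to 21.3 and 14.8 to 26.8 CPM, which overlap. Of the neutrophil, erythroid and platelet markers 0 passed in edgeR, and 0 had an unadjusted p under 0.05. The part of these marker differences in the values of the E2F and pocket protein genes, and of the other genes named below, was not tested. In RNA from a bulk population, fewer cells of a type and less RNA per cell cannot be told apart.

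The promoters of the members are shown first, because several of these genes are themselves known E2F targets. RefSeq promoter windows of 300 bases (GRCm38.p6, 250 bases before to 50 after each annotated start) were found for 7 of the 10 members, and for E2f2 and E2f3 there were 2 starts each. E2f4, E2f5 and Rb1 had no entry. The windows were searched on both strands for any of the letters TTTCGCGC, TTTCCCGC, TTTGGCGC or TTTGCCGC, which are common forms of the E2F element. Of all 32851 promoter windows, 2.26% held at least 1 such match. Matches were found for 4 members, Rbl1, E2f2, E2f3 and E2f7. The stretches around them read 5′ to 3′ along each gene, with the E2F letters (or their reverse complement) in capitals.
Rbl1, chr2:157204515-157204582, minus strand: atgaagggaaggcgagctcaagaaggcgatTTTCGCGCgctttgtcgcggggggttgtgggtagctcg
E2f2, chr4:136172283-136172323, plus strand: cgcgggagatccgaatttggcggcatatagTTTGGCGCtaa
E2f3, chr13:29986037-29986104, minus strand: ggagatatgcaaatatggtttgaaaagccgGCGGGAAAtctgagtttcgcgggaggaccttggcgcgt
E2f7, chr10:110745211-110745278, plus strand: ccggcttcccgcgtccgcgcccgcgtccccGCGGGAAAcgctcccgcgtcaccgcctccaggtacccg

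The match of E2f3 ended 3 bases before the upstream start of the gene, and that of Rbl1 ended 10 bases before its start. The same windows were searched for GCGTG, the core letters of the dioxin response element that AhR and its partner ARNT bind. These 5 letters are frequent and stood in 32.4% of all promoter windows, and they were present in the windows of 3 members, E2f1, E2f8 and E2f3 (at the downstream start only). For E2f1 and E2f3, whose windows held 1 match each, the surrounding bases were as follows, with the core or its reverse complement in capitals.
E2f1, chr2:154569515-154569579, minus strand: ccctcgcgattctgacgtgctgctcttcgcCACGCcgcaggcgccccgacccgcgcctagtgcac
E2f3 downstream start, chr13:29984574-29984638, minus strand: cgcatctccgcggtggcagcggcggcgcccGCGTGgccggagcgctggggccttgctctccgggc

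E2f6, the member with the smallest p-value below, had neither set of letters in its window. Its last 100 bases around the start, of which 67 are G or C, are printed for comparison with the others. A match describes letters in a window of fixed length, and its absence says only that they are not in that window. The RefSeq start of E2f1 used here, at 154569426, lies inside the gene, which the GENCODE annotation extends to 154569892.
E2f6, chr12:16810915-16811014, plus strand: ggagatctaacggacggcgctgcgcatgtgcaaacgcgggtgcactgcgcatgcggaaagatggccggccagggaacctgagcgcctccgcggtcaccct

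Levels of different genes were compared per length, as CPM per kb of the exon union of each gene in GENCODE M21. E2f4, the most abundant pocket-protein-dependent repressor, led the family in every library. Its level was 87.5 ± 2.84 CPM per kb with AhR and 85.7 ± 2.95 CPM per kb without it (SD over 3 mice each), the order in which values are given below. E2f5, its closest relative, followed at 16.3 ± 0.889 and 17.1 ± 0.322 CPM per kb. Rb1, at 16.1 ± 0.485 and 16.6 ± 0.234 CPM per kb, could not be separated from E2f5, since their values over the 6 libraries overlapped. E2f6 came next with 7.67 ± 0.341 and 9.68 ± 0.296 CPM per kb. The activator E2f3 (4.43 ± 0.0880 and 5.20 ± 0.303 CPM per kb) and Rbl1 (3.75 ± 0.337 and 4.19 ± 0.358 CPM per kb) had overlapping ranges as well. The other activators were lower, E2f1 at 2.63 ± 0.244 and 3.01 ± 0.318 CPM per kb and E2f2 at 1.07 ± 0.124 and 0.871 ± 0.0857 CPM per kb. The atypical members were at the bottom, with E2f8 at 0.256 ± 0.107 and 0.299 ± 0.0492 CPM per kb and E2f7 at 0.0563 ± 0.00944 and 0.0441 ± 0.0253 CPM per kb. Apart from the 2 overlaps just named, the values of neighbours in this order did not overlap over the 6 libraries. The place of E2f6 depends on the length used, since with the longest transcript of each gene its values overlapped those of E2f5 and were higher than them in Ahr-/- B cells.

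**Figure D1:**
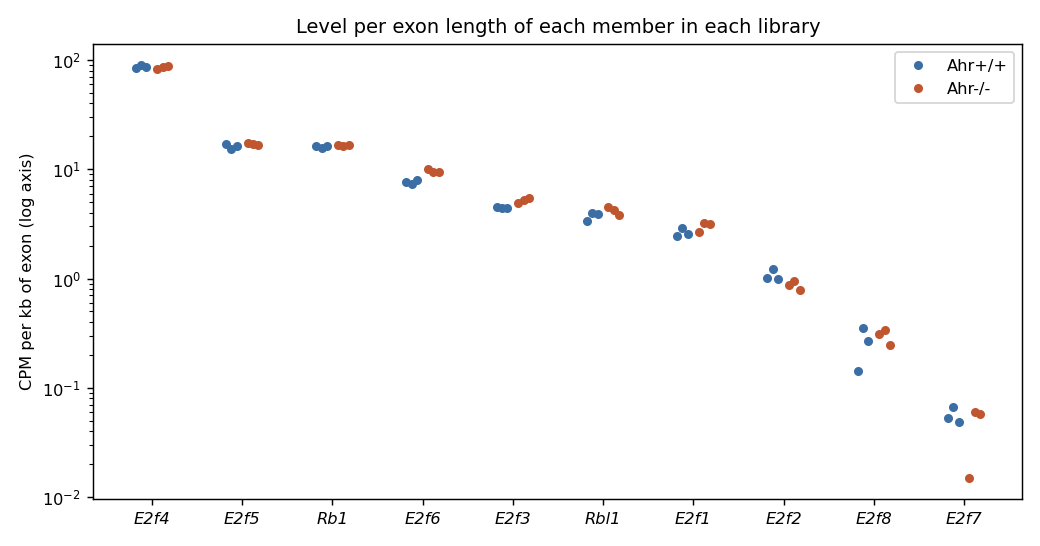
Level of each member in CPM per kb of exon (vertical log axis), ordered from highest to lowest mean, with 1 point per library, Ahr+/+ in blue and Ahr-/- in orange. E2f4 lies between 82.4 and 90.6 in all 6 libraries and E2f7 between 0.0149 and 0.0668.

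Expressed as a share of the summed level of all 8 E2F genes, E2f4 made up 73.0 ± 1.04% with AhR and 70.3 ± 0.766% without it (SD over 3 mice each). The share of E2f6 was 6.40 ± 0.361% and 7.95 ± 0.436%, with values of 6.47%, 6.01% and 6.72% in Ahr+/+ libraries against 8.45%, 7.76% and 7.64% in Ahr-/- libraries. Among the 3 activators E2f3, counted over both of its starts, accounted for most, 54.5 ± 2.69% and 57.3 ± 1.53% of their summed level. The corresponding shares of E2f2 were 13.2 ± 0.976% and 9.62 ± 1.08%. These shares depend on the gene lengths used and carry no test.

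Between genotypes, 2 of the 10 members passed an adjusted p-value of 0.05 in edgeR's quasi-likelihood test, and both, E2f6 and E2f3, were higher in AhR-deficient B cells. By this test 0 members were lower, with 1 at an unadjusted p under 0.05 (E2f2) and 0 in DESeq2. Over all 13682 genes tested, 17.9% passed (9.79% higher and 8.13% lower), so the share of members that passed was near that of genes in general. The median log2 fold change was 0.11 over the members and 0.00 over all tested genes. Normalized counts of the genotypes did not overlap for 3 members (E2f2, E2f3 and E2f6), where 33.5% of all tested genes had no overlap. For any gene, 3 mice against 3 allow an exact permutation p of 0.1 at the lowest, so the calls rest on the model fitted across genes.

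**Figure D2:**
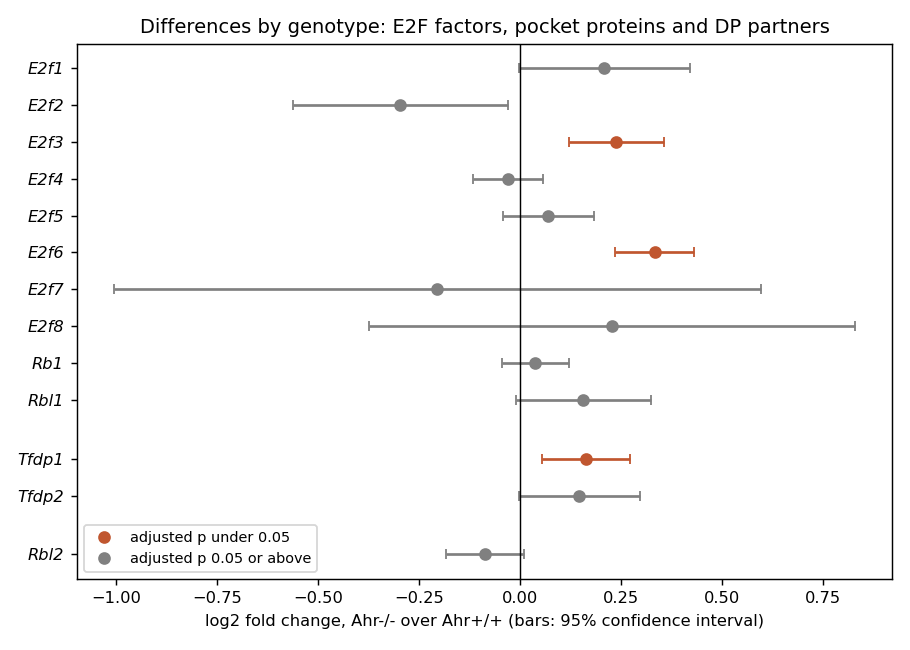
Log2 fold change of Ahr-/- over Ahr+/+ B cells (horizontal axis) for the 10 members, the DP partners and Rbl2, with 95% confidence intervals as bars, and in orange where the adjusted p was under 0.05. The intervals of E2f3 (0.12 to 0.35), E2f6 (0.24 to 0.43) and Tfdp1 (0.05 to 0.27) lie above 0.

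Among the activators, E2f3 rose. It had 946, 916 and 913 normalized counts in Ahr+/+ libraries and 1018, 1098 and 1142 in Ahr-/- libraries. Every Ahr-/- library was above every Ahr+/+ library. The means were 925 ± 18.4 and 1086 ± 63.2 (SD, n = 3 mice each), a log2 fold change of 0.24 (standard error 0.054, edgeR adjusted p = 0.00848). E2f3 lies on chromosome 13 from 29906575 to 29986063 on the minus strand, and the table gives 1 count for the gene, which does not separate transcripts from its 2 starts. An antisense gene, Gm11365, lies within it on the opposite strand.

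E2f1, the activator that is also known to induce apoptosis genes, is on chromosome 2 from 154559407 to 154569892. The Ahr+/+ libraries held 298, 353 and 307 normalized counts of E2f1, and the Ahr-/- libraries held 321, 394 and 379. The ranges overlapped, because Ahr+/+ replicate 2 exceeded Ahr-/- replicate 1. The log2 fold change of E2f1 was 0.21 (95% confidence interval -0.00 to 0.42, edgeR adjusted p = 0.177).

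E2f2, the remaining activator, is on chromosome 4 from 136172394 to 136196057. The Ahr+/+ libraries held 188, 228 and 188 normalized counts of E2f2 and the Ahr-/- libraries 163, 180 and 148, without overlap and with the lower values in Ahr-/- B cells. Its log2 fold change was -0.30 (95% confidence interval -0.56 to -0.03), with an unadjusted p of 0.0323 and an adjusted p of 0.126 in edgeR, so it missed the threshold. The ratio of E2f2 to E2f1 counts within a library, which needs no scaling between libraries, was 0.632, 0.647 and 0.612 in Ahr+/+ and 0.508, 0.457 and 0.389 in Ahr-/- libraries. This ratio was singled out after its values were seen, and it carries no test.

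**Figure D3:**
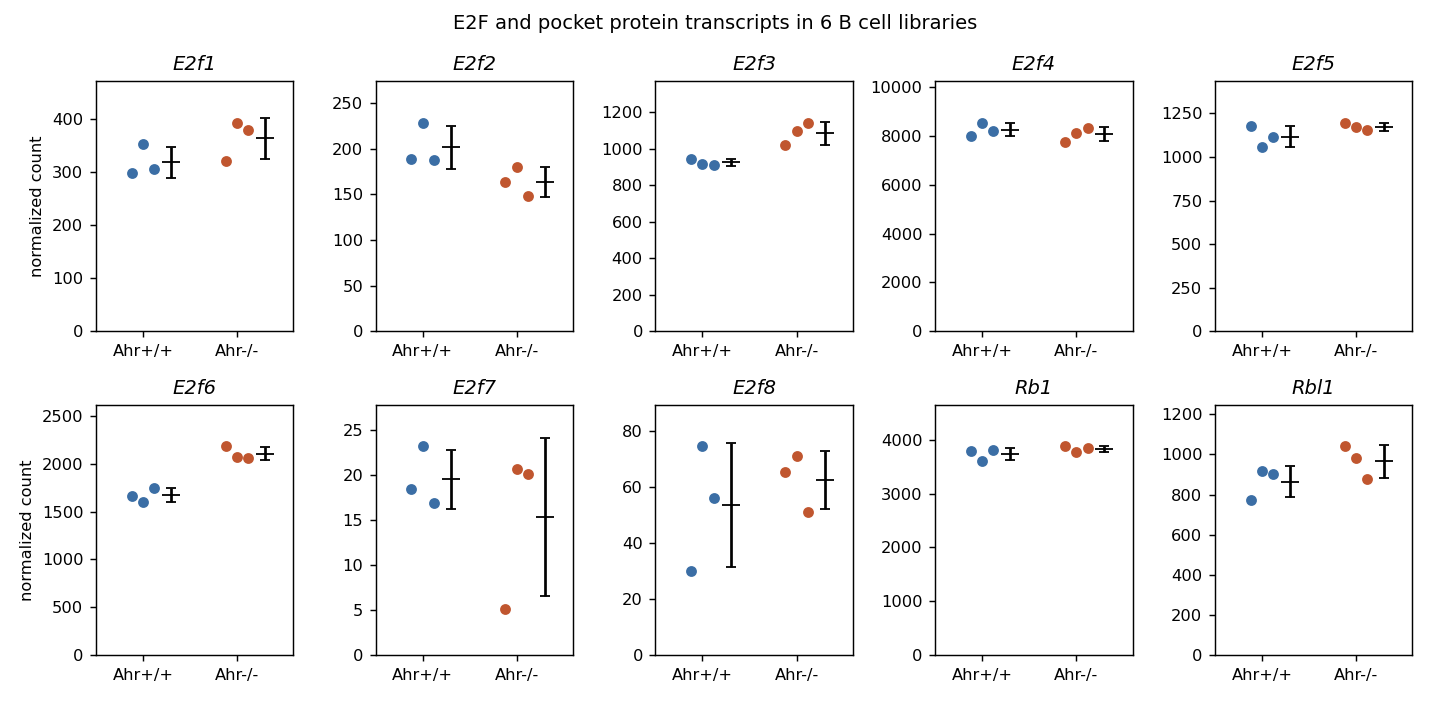
Normalized counts (vertical axes, each from 0) of the 10 members in each of 3 Ahr+/+ (blue) and 3 Ahr-/- (orange) libraries, with the mean and SD in black. The points of E2f2, E2f3 and E2f6 do not overlap between genotypes, and those of the other 7 genes do.

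The repressors E2f4 and E2f5, which carry most of the E2F message in these cells, did not pass the test. E2f4 (chromosome 8, 105297663 to 105305370) had 8016, 8542 and 8192 normalized counts in Ahr+/+ and 7768, 8139 and 8312 in Ahr-/- libraries. Its log2 fold change was -0.03 and its 95% confidence interval, -0.12 to 0.06, excludes the size of the change in E2f6. E2f5 (chromosome 3, 14578641 to 14606309) had 1176, 1054 and 1116 normalized counts in Ahr+/+ and 1196, 1169 and 1152 in Ahr-/- libraries. The log2 fold change of E2f5 was 0.07, with an interval of -0.04 to 0.18. The adjusted p-values were 0.675 and 0.412 in edgeR. The last 26 bases of E2f5 overlap 1810022K09Rik on the opposite strand.

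E2f6 showed the clearest difference of the members. E2F6 works as part of a Polycomb complex, PRC1.6, and keeps E2F-responsive and germline genes silent. Its normalized counts were 1662, 1601 and 1749 in Ahr+/+ libraries and 2181, 2075 and 2065 in Ahr-/- libraries. The Ahr-/- values were all higher, and the gap between the genotypes exceeded the spread within either. The means were 1670 ± 74.3 and 2107 ± 64.4 (SD, n = 3 mice each), the log2 fold change was 0.33 (standard error 0.045, 95% confidence interval 0.24 to 0.43), and the edgeR adjusted p was 0.000188. By p-value E2f6 ranked 542 of the 13682 genes. It overlaps no other annotated gene. Among genes averaging 100 or more normalized counts, the 3 whose log2 CPM most resembled that of E2f6 over the 6 libraries were Actr3b, Nptn and Fam126a, each with Pearson's r = 0.995. Of 9691 genes compared in this way, 217 had r above 0.95, and the points share their libraries and the split by genotype.

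E2f6 is on the chromosome of the targeted gene, on chromosome 12 from 16810963 to 16839742, 18.7 Mb from Ahr. Of the tested genes that could be placed between 10 and 20 Mb from Ahr, 21 of 48 had an adjusted p-value under 0.05 in edgeR (10 higher and 11 lower), which is 43.8%, E2f6 included, against 17.9% of all genes. The share was 36% of 50 genes at 15 to 25 Mb (6 higher and 12 lower), and at 5 to 15 Mb, a window that ends before E2f6, it was 29% of 31 genes (7 higher and 2 lower). Of the 9 other tested genes starting within 1 Mb of E2f6, 6 passed. Lower were 4 of them, Lpin1 (log2 fold change -0.42), Nol10 (-0.34), Pdia6 (-0.18) and Odc1 (-0.14). Higher were Rock2 (0.16) and Kcnf1, which had no counts in Ahr+/+ libraries and a mean of 3.58 normalized counts in Ahr-/- libraries. In Ahr-/- mice, loss of Ahr and any flanking chromosome 12 sequence of the other strain, inherited with the targeted allele, cannot be told apart here.

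The atypical members had the widest intervals of the 10. E2f7 (chromosome 10, 110745439 to 110787384) had raw counts of 19, 23 and 15 in Ahr+/+ and 3, 29 and 22 in Ahr-/- libraries. Its log2 fold change of -0.21 had a 95% confidence interval of -1.01 to 0.59, and without Ahr-/- replicate 1 it became 0.06. E2f8 (chromosome 7, 48866429 to 48881596) had raw counts of 31, 74 and 50 and of 38, 100 and 56. Its log2 fold change of 0.23 had an interval of -0.37 to 0.83 and became -0.07 without Ahr+/+ replicate 1 and 0.55 without Ahr+/+ replicate 2. The normalized counts of E2f8 had a coefficient of variation of 41.6% over the Ahr+/+ mice, and those of E2f7 one of 57.4% over the Ahr-/- mice. Both intervals include the log2 fold change of E2f6 as well as 0. Both also overlap annotated genes on the opposite strand.

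Neither pocket protein passed the test. Rb1 (chromosome 14, 73183673 to 73325822) had 3783, 3604 and 3811 normalized counts in Ahr+/+ and 3875, 3772 and 3850 in Ahr-/- libraries, a log2 fold change of 0.04 (95% confidence interval -0.05 to 0.12, edgeR adjusted p = 0.57). Rcbtb2 and Lpar6 overlap Rb1 on the opposite strand, and Gm17233 and Mir687 overlap it on the same strand. Rbl1 (chromosome 2, 157145893 to 157204534), which is itself induced by E2F as cells approach S phase, had 774, 916 and 901 normalized counts in Ahr+/+ and 1040, 981 and 877 in Ahr-/- libraries. Its ranges overlapped, and the log2 fold change was 0.16 (95% confidence interval -0.01 to 0.32, edgeR adjusted p = 0.198). It was 0.08 without Ahr+/+ replicate 1 and 0.22 without Ahr-/- replicate 3, and passed in neither fit. Rbl2, which encodes p130 and was not among the members, had a log2 fold change of -0.09 (95% confidence interval -0.18 to 0.01, edgeR adjusted p = 0.216).

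Ratios to Rb1 within the same library gave the same ordering of the genotypes without any scaling factor. There were 0.447 ± 0.0102 counts of E2f6 per count of Rb1 in Ahr+/+ and 0.550 ± 0.0133 in Ahr-/- libraries (SD, n = 3 mice each), with no overlap. For E2f3 the ratio was 0.248 ± 0.00746 and 0.283 ± 0.0183, again with no overlap. For E2f1 (0.0858 ± 0.0106 and 0.0952 ± 0.0112) and Rbl1 (0.232 ± 0.0250 and 0.252 ± 0.0214) the ratios overlapped. A ratio shows an unequal change of its 2 genes and not which of them moved.

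**Figure D4:**
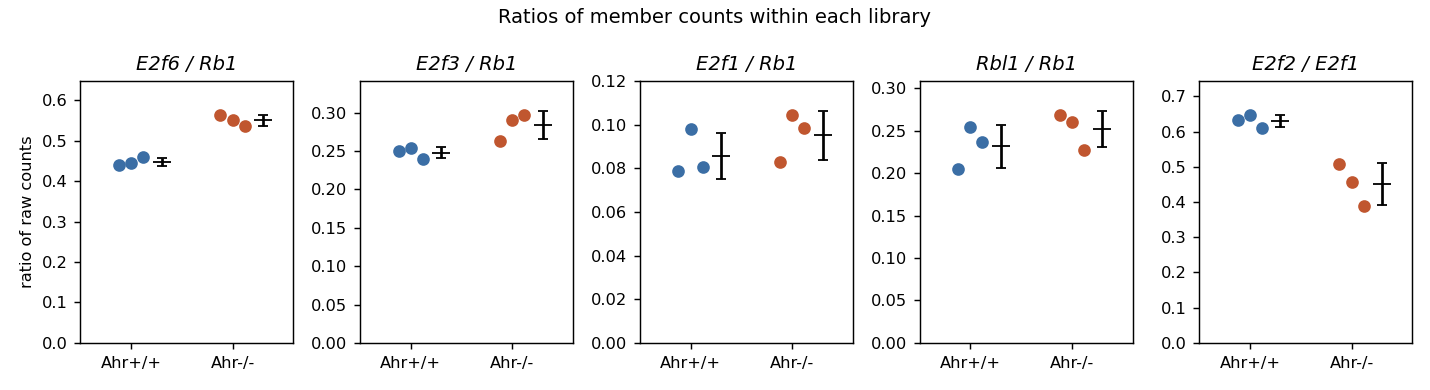
Ratios of raw counts of the named gene pairs within each library (vertical axes, each from 0), for 3 Ahr+/+ (blue) and 3 Ahr-/- (orange) libraries with mean and SD in black. E2f6 to Rb1, E2f3 to Rb1 and E2f2 to E2f1 separate the genotypes, and the other 2 ratios do not.

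Tfdp1 and Tfdp2 encode the DP proteins with which E2F1 to E2F6 pair. Tfdp1 rose from 4691 ± 302 to 5243 ± 189 normalized counts, a log2 fold change of 0.16 (edgeR adjusted p = 0.0409). This call was lost in 4 of the 6 fits that left out a library, Ahr+/+ replicate 1 or 3 or Ahr-/- replicate 2 or 3, with adjusted p-values between 0.0655 and 0.159. Tfdp2 had 398 ± 16.9 and 441 ± 8.77 normalized counts and did not pass (log2 fold change 0.15, edgeR adjusted p = 0.18).

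Upstream of the pocket proteins, 1 of 11 tested cyclins and kinases passed, where 17.9% of all tested genes did. Ccnd1, cyclin D1, which with CDK4 or CDK6 starts RB phosphorylation, had 30.1, 40.2 and 33.7 normalized counts in Ahr+/+ and 106, 93.1 and 79.3 in Ahr-/- libraries. The genotypes did not overlap, and the log2 fold change was 1.40 (standard error 0.191, edgeR adjusted p = 0.000217). Which cells of the cultures this low count came from was not tested. Per length Ccnd1 was the lowest of the D cyclins, at 0.192 ± 0.0284 and 0.514 ± 0.0748 CPM per kb, where Ccnd2 stood at 53.7 ± 5.36 and 61.6 ± 5.24 CPM per kb and Ccnd3 at 3.14 ± 0.187 and 3.31 ± 0.205 CPM per kb. Ccnd2 had a log2 fold change of 0.20 and an adjusted p of 0.0708 in edgeR, and it fell under 0.05 in 5 of the 14 other fits tried. Ccnd3 (0.08), Cdk4 (-0.00), Cdk6 (0.16), Cdk2 (0.05), Ccne1 (-0.19), Ccne2 (-0.27) and Ccna2 (-0.02) had the log2 fold changes in parentheses and did not pass. Of 7 CDK inhibitors, which oppose these kinases, 0 passed in edgeR and 0 in DESeq2, and 2, Cdkn1a and Cdkn1b, had unadjusted p-values under 0.05 in edgeR (0.0372 and 0.0102). The log2 fold change of Cdkn1b, p27, was -0.16 (adjusted p = 0.055, and under 0.05 in 3 of the 14 other fits), that of Cdkn1a, p21, was -0.26 (adjusted p = 0.139), and that of Cdkn2c, p18, was 0.13 (adjusted p = 0.62). For Cdkn1a it was -0.09 without Ahr+/+ replicate 1 and -0.39 without Ahr+/+ replicate 3, the latter with an edgeR adjusted p of 0.0134. It passed in 1 of the 14 other fits.

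Downstream, 34 genes known as E2F targets at the G1/S transition, without the members themselves, were tested. Of these 3 rose, 1 fell and 30 did not pass, so 4 of 34 passed where 17.9% of all tested genes did. Their median log2 fold change was 0.00, as over all genes. Uhrf1, which maintains DNA methylation, rose from 1693 ± 117 to 2219 ± 189 normalized counts, a log2 fold change of 0.40 (standard error 0.064, edgeR adjusted p = 0.000743). Cdc25a, a phosphatase that activates CDK2, rose from 1123 ± 20.7 to 1414 ± 99.9 normalized counts, a log2 fold change of 0.34. Mcm6, a subunit of the replicative helicase, rose from 6044 ± 130 to 7273 ± 344 normalized counts, a log2 fold change of 0.27. Cdt1, which loads that helicase at origins, fell from 4084 ± 106 to 3559 ± 150 normalized counts, a log2 fold change of -0.20 (edgeR adjusted p = 0.00543). None of these 4 genes had overlapping values between genotypes.

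The other helicase subunits Mcm2 (0.11), Mcm3 (0.03), Mcm4 (0.03), Mcm5 (-0.10) and Mcm7 (0.08) had the log2 fold changes given and did not pass. Pcna, the sliding clamp, had 14412 ± 430 and 14029 ± 394 normalized counts, a log2 fold change of -0.04 (95% confidence interval -0.12 to 0.04). Cdc6 (0.04, -0.42 to 0.51) and Rrm2 (-0.20, -0.57 to 0.18) had wide intervals around their log2 fold changes, at 66.9 ± 10.4 and 157 ± 35.1 normalized counts in Ahr+/+ libraries. The E2F letters described above were in the promoter windows of 12 of the 27 target genes with a RefSeq entry, against 2.60% of the 27025 genes in that table.

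**Figure D5:**
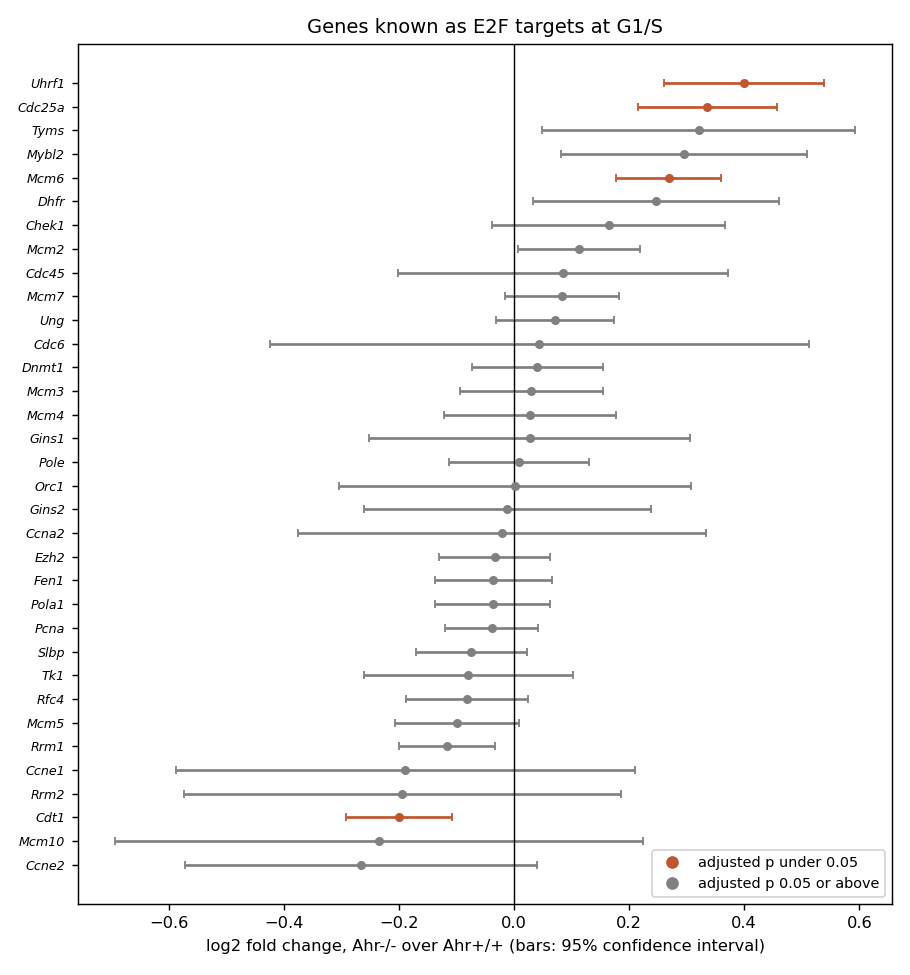
Log2 fold change of Ahr-/- over Ahr+/+ B cells with its 95% confidence interval for 34 E2F target genes, ordered by size. Uhrf1, Cdc25a and Mcm6 (higher) and Cdt1 (lower) have an adjusted p-value under 0.05, and the other 30 are spread on both sides of 0.

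Repressive partners and binding proteins of these factors were also counted. Of 10 genes of the PRC1.6 complex that E2F6 joins, 0 passed in edgeR (1 at an unadjusted p under 0.05), where 17.9% of all tested genes did. Their log2 fold changes ran from -0.13 to 0.09, and 1 passed in DESeq2. That gene was Cbx3, with an unadjusted p of 0.00958 and an edgeR adjusted p of 0.0527, which fell under 0.05 in 6 of the 14 other fits tried. Of 16 genes for corepressors or other binding proteins of RB and its relatives, 0 rose in edgeR (1, Hdac1, at an unadjusted p under 0.05) and 0 in DESeq2. In edgeR 4 of the 16 fell (6 at an unadjusted p under 0.05) and 5 fell in DESeq2, where 8.13% of all tested genes were lower in edgeR. The 4 were the SWI/SNF ATPase Smarca2 (log2 fold change -0.30), Arid4b, which belongs to the SIN3 complex (-0.27), the histone chaperone Rbbp7 (-0.18), and the H3K4 demethylase Kdm5a (-0.16), with edgeR adjusted p-values between 0.000276 and 0.00914. The MuvB core forms the repressive DREAM complex with E2F4 and p130 or p107, and binds B-MYB once these have left. Of 8 genes of the MuvB core and the MYB family, Lin54, which encodes a MuvB subunit, and Mybl1, which encodes A-MYB, fell, where 8.13% of all tested genes were lower. The call of Lin54 was lost in 7 of the 14 other fits, DESeq2 among them, with adjusted p-values up to 0.0908. Rbbp4 was counted in this list and among the 16 genes above.

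Mybl1 went from 94.5 ± 3.61 to 52.7 ± 11.5 normalized counts, a log2 fold change of -0.88 (edgeR adjusted p = 0.00501). Lin54 had a log2 fold change of -0.18 (edgeR adjusted p = 0.0248). Mybl2, an E2F target that encodes B-MYB, had 218 ± 20.5 and 267 ± 12.1 normalized counts, a log2 fold change of 0.30 and an edgeR adjusted p of 0.0577, which was under 0.05 in 3 of the 14 other fits. Of 10 apoptosis genes linked to E2F1, 1, Bcl2l11, passed, where 17.9% of all tested genes did. Trp73, with raw counts of 1, 4 and 12 in Ahr+/+ and 1, 0 and 1 in Ahr-/- libraries, had an unadjusted p of 0.0205 and an edgeR adjusted p of 0.0915, which was under 0.05 in 1 of the 11 other fits that gave a value. Bcl2l11, which encodes the BH3-only protein BIM, rose from 4025 ± 142 to 4753 ± 64.1 normalized counts, a log2 fold change of 0.24 (edgeR adjusted p = 0.000935).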

How the data were processed

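RNA was sequenced from TruSeq stranded libraries. The submitters' processing notes name TopHat2 (version 2), HTSeq, DESeq and the build mm10; their parameters and the strand setting of the counting are not given in the sources used here. The authors deposited raw counts per gene symbol for each mouse, which were used. Their normalized counts and the table of their own comparison (means, fold changes, p-values) were not used.

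Of 23420 genes, the 13682 whose counts summed to 10 or more were tested with edgeR 4.0.16 (R 4.3.3, limma 3.58.1) by the quasi-likelihood test after TMM scaling, with a prior count of 0.125, and p-values were adjusted over all tested genes by Benjamini-Hochberg. Normalized counts are counts divided by library size times TMM factor, relative to the mean of the libraries. A floor of 3 counts, set for counting error only, stood at 0.0559 to 0.136 CPM in the libraries, and lower counts occur. GENCODE M21 (GRCm38) gave positions and lengths, and 93.5% of tested symbols were placed. Members and gene lists were chosen with earlier results of these data known. Named genes were all members, listed genes with an adjusted p-value under 0.05 (up to 6 per list), 20 fixed pathway genes and the 3 genes most like the top member. Genes named beyond this rule were chosen after their values were seen. Alternatives used DESeq2 1.42.0, other scalings, filters, priors and designs, and each library left out. The labels give replicate numbers but do not tie the genotypes together, and p-values measure the spread between these mice.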

Additional observations from a re-analysis of the deposited data

How the results depend on the processing

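E2f6 and E2f3 had an adjusted p-value under 0.05 and were higher in Ahr-/- B cells in each of the 14 other fits, with log2 fold changes of 0.30 to 0.37 for E2f6 and 0.20 to 0.28 for E2f3, and the other 8 members passed in none of them. The fit with a prior count of 2 left the adjusted p-values of E2f6 and E2f3 unchanged and could not move a call. With a library left out the number of members called stayed at 2. The number of genes called over the whole table was 2453, went to 1473 at an adjusted p-value under 0.01, and lay between 1664 and 2601 with a library left out. Its split was 1340 higher and 1113 lower, against 1621 and 919 with library size alone and 1110 and 1088 with DESeq2. The number of E2F targets called, 4 in the reported fit, lay between 4 and 6 over all settings. With the replicate number as a block 2303 genes, 2 members and 4 targets were called. Deviations of same-numbered libraries correlated at -0.15, 0.26 and -0.19, and those of other pairs across the genotypes at -0.35 to 0.37. With so few libraries these values cannot decide whether the numbers pair the mice. Under the block Lin54 had an edgeR adjusted p of 0.0517. The share of called genes on the chromosome of Ahr was 43.8% at 10 to 20 Mb from Ahr and 36% at 15 to 25 Mb, windows that hold E2f6, and 29% at 5 to 15 Mb, which does not hold it. With the longest transcript as length E2f6 moved from 7.67 to 14.4 CPM per kb in Ahr+/+ B cells and, by the mean over all libraries, Rb1 stood above E2f5 and the other 8 members kept their place in the order. With that length the values of E2f5 and E2f6 overlapped, and in Ahr-/- B cells E2f6 (18.2 ± 0.555 CPM per kb) stood above E2f5 (17.1 ± 0.323 CPM per kb). The causes of these shifts were not tested. Over the 14 other fits the log2 fold change lay between 0.15 and 0.29 for E2f1, -0.39 and -0.20 for E2f2, -0.05 and -0.00 for E2f4, 0.03 and 0.11 for E2f5, 0.01 and 0.06 for Rb1, 0.08 and 0.22 for Rbl1, -0.44 and 0.06 for E2f7, and -0.07 and 0.55 for E2f8. E2f7 had at most 29 raw counts in a library.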
